A study of Danio rerio with 43 samples.

Results

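The change in polyadenylated RNA from dome (late blastula, 4 to 4.5 hours after fertilisation) to shield (early gastrula, 6 hours) was measured in pools of whole zebrafish embryos that carry the rif1 allele omf201 on both chromosomes. The comparison rests on 7 of the 43 libraries of the series, which are the 3 mutant libraries at dome and the 4 mutant libraries at shield. Wild-type embryos of the Tab5 strain gave 4 libraries at dome and 3 at shield, and these served to show how the same step runs in embryos with rif1. The mutants are assigned to the same strain in the labels, which do not name the genotype of the parents. The labels name no treatment for either genotype. Each library was made from a pool, and nothing in the labels says that the libraries of a group came from separate clutches, so the p-values measure the spread between these libraries, which may be technical.

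Rif1 is a chromatin protein that controls when parts of the genome are replicated, through the phosphatase PP1. The early zebrafish embryo divides on mRNA that the mother placed in the egg. Between the blastula and the gastrula the embryo takes over: transcription of its own genome is under way, microRNA miR-430, codon content and RNA methylation mark maternal mRNAs for removal of their poly(A) tails and decay, and Nodal, BMP, Wnt and Fgf signals set up endoderm, mesoderm and ectoderm. At dome the cells begin to spread over the yolk. At shield the margin has turned inward and the dorsal organizer is visible. The genes were grouped into 17 lists written from general knowledge, of which 241 symbols were matched to an entry of the table, and these were read as maternal clearance first and germ layers second.

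The mutant libraries held 5211421 to 6826224 counts at dome and 6311609 to 7232166 at shield, and the wild-type libraries held 6273139 to 7717370. Correlations of log2 CPM lay between 0.921 and 0.944 over the 9 pairs of mutant replicates. The mutant shield pairs that held library 1 were at 0.921 to 0.929, and the other mutant shield pairs at 0.938 to 0.944. Levels are given as CPM (counts relative to the library total, with TMM scaling over the 14 dome and shield libraries), changes as log2 units at shield relative to dome, and tests come from edgeR (quasi-likelihood fit, p-values adjusted by Benjamini and Hochberg over all genes tested). A gene is said to have risen or fallen where the adjusted p is under 0.05. The 10 most abundant genes took 5.76% to 6.21% of the counts of a mutant dome library and 10.1% to 10.7% of a shield library. The 13 matched markers of later tissues (among them blood, muscle, lens, pigment and nerve) summed to 10.9 to 53.9 CPM at dome and 8.26 to 30.1 CPM at shield in the mutants. Of these markers 2 were at 0 in every mutant shield library. Among the 7 tested in the mutants 1 rose, by 4.90 log2 units, and none fell.

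The targeted gene was low at both stages. rif1 (ENSDARG00000062650) was at 14.98, 9.53 and 11.2 CPM in the mutant dome libraries and at 21.2, 18.2, 22.96 and 19.4 CPM in the mutant shield libraries, and at 227–299.7 and 117–163 CPM in the wild-type libraries of the same stages. The mutant shield libraries were all above the mutant dome libraries, and the change of 0.74 (SE 0.36, adjusted p 0.102) did not pass the threshold in the fit of the mutant libraries alone. It passed in a fit of all 4 groups (0.78, adjusted p 0.000623) and in one of all 12 groups of the series (0.74, adjusted p 0.0042). In wild type the change was -0.89 (SE 0.13, adjusted p 2.45e-05), and the difference between the genotypes was itself past the threshold at 1.69 (SE 0.24, adjusted p 1.03e-05).

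Almost as many genes rose as fell in the mutants between the stages. Of 11174 genes tested, 5280 (47.3%) were called, 2634 higher (23.6%) and 2646 lower (23.7%) at shield, and 3697 (33.1%) changed by at least 1 log2 unit as well. The median change over all genes tested was -0.09. Counts of list members given below are to be read beside these shares and this median. With library totals in place of scaling factors the split was 1730 higher and 3857 lower, because that scaling moves the median of all genes by -0.41 log2 units. Changes printed below are on the scaled values, and a mutant call that turns on the scaling is marked. Splits of a list that moved by few members are not all marked. Wild-type changes of single genes were not checked with library totals, which move the wild-type median by -0.47 log2 units. Poly(A) RNA was captured, so fewer copies of a transcript and shorter tails on the same copies cannot be told apart. In pools of whole embryos, fewer cells of a type and less RNA per cell cannot be told apart either.

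**Figure D1:**
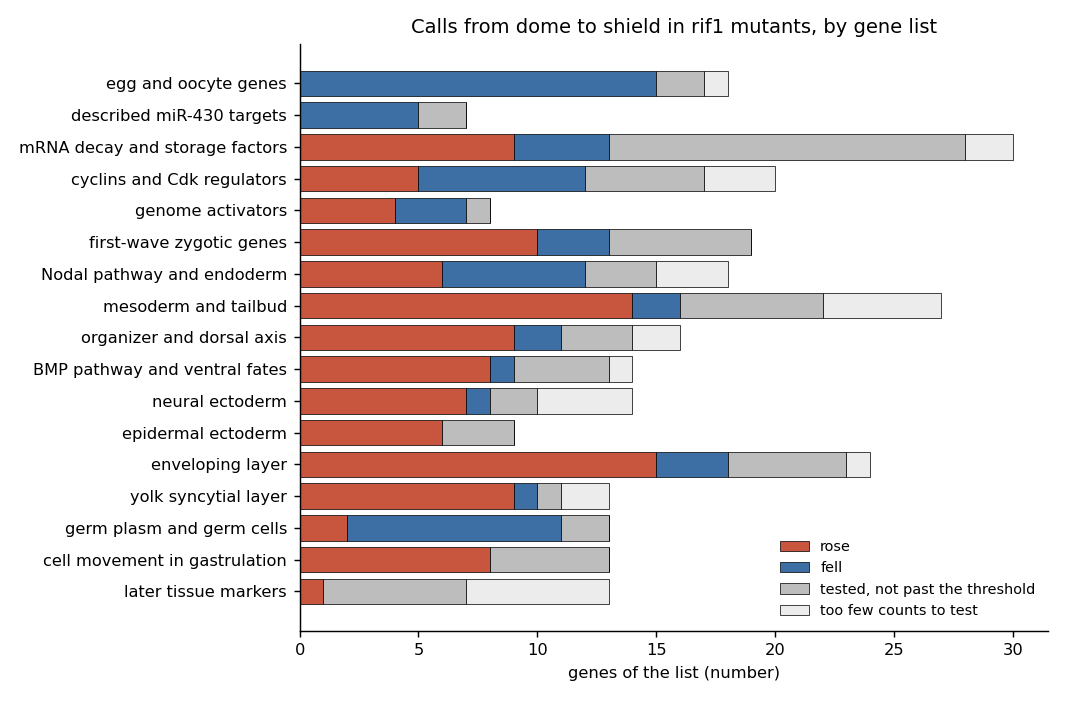
The horizontal axis counts the matched genes of each of the 17 lists, and the colours show how many rose, fell, were tested without passing the threshold, or had too few counts to be tested in the mutant dome and shield libraries. Egg and oocyte genes were called in 1 direction, lower, while mesoderm, enveloping layer and yolk syncytial layer genes were called mostly higher.

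Maternal supply was first set apart without using any list. Genes were classed by the mutant 1-cell and 256-cell libraries, none of which enters the comparison. Of 7289 tested genes with a mean of at least 10 CPM at the 1-cell stage, 2305 (31.6%) fell and 1613 (22.1%) rose, with a median change of -0.27. Of 701 genes with at most 3 counts in every 1-cell and 256-cell library, 242 (34.5%) rose and 49 (6.99%) fell, with a median of 1.26. The 3184 genes in between had 779 rises, 292 falls and a median of 0.29. These counts are descriptions, because genes scarce at 1 stage passed the count filter through the other. Of the 701 genes, 54 had at most 3 counts in every dome library and 47 of them rose; among the other 647, 195 (30.1%) rose and the median was 1.13. Of the 7289 genes, 29 had at most 3 counts in every shield library, and all 29 fell. With library totals the first class held 919 rises and 3349 falls and the class in between 613 and 446.

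**Figure D2:**
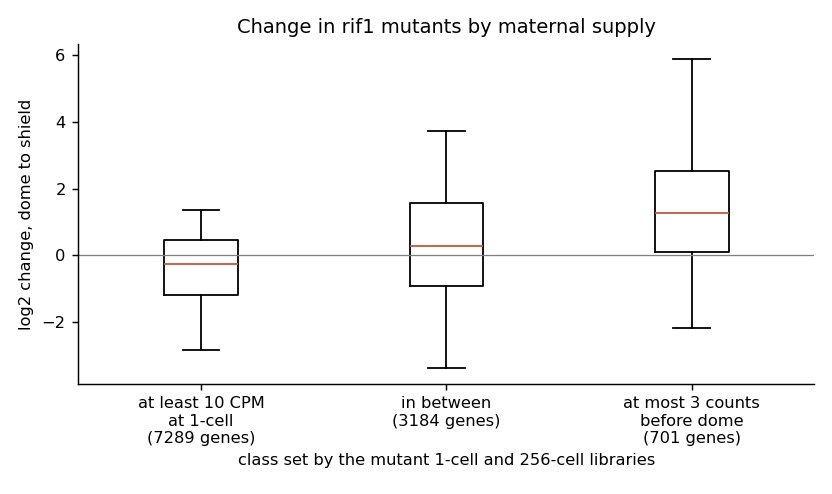
The vertical axis is the log2 change from dome to shield in the mutants, and each box covers the middle of a class of genes (25th to 75th percentile, median in red, whiskers at the 5th and 95th percentiles). The median lies below 0 for genes with at least 10 CPM at the 1-cell stage (-0.27) and above 0 for genes with at most 3 counts in every library before dome (1.26).

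Of 17 tested egg and oocyte genes, 15 fell, none rose, and the median change was -2.19. Over all genes tested 23.7% fell and 23.6% rose. The steepest fall among those named here was that of btg4 (ENSDARG00000035171), whose mouse product brings the CCR4-NOT deadenylase to maternal mRNAs. It was at 105, 103 and 96.6 CPM in the dome libraries and at 3.87, 9.29, 6.94 and 3.57 CPM in the shield libraries. All dome libraries were far above all shield libraries, and the change was -4.14 (SE 0.29, adjusted p 1.32e-10). Wild type gave -4.11 (SE 0.30, adjusted p 1.43e-08), and the difference between the genotypes of 0.04 (SE 0.44, adjusted p 0.99) did not pass the threshold.

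Regulators of meiosis fell as well. wee2, a kinase that holds Cdk1 inactive in mammalian oocytes, went from 268, 326 and 344 CPM to 32.9, 26.9, 18.8 and 25.95 CPM, a change of -3.62 (SE 0.17, adjusted p 2e-13). fbxo43, which encodes the Emi2 inhibitor of the anaphase-promoting complex, went from 350.3, 357 and 479 CPM to 76.2, 69.8, 65.7 and 73.3 CPM, a change of -2.51 (SE 0.13, adjusted p 1.2e-12). mos, the kinase that keeps vertebrate eggs arrested, changed by -3.02 (SE 0.76, adjusted p 0.00272, with -4.28 without mutant shield library 2) from 15.7–21.03 CPM to 0–6.63 CPM. The stages did not overlap for any of these 3 genes. The wee2 fall was the deeper of the genotypes, with -2.63 in wild type and an interaction of -0.93 (SE 0.20, adjusted p 0.00295).

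Genes for egg patterning and growth fell too. buc, the organizer of the Balbiani body and germ plasm, was at 132, 155 and 124 CPM at dome and at 19.2, 36.97, 18.003 and 18.2 CPM at shield, with the second shield library above the other 3 but below every dome library (log2 change -2.61, SE 0.23, adjusted p 4.74e-09). hwa, the maternal membrane protein huluwa that sets the dorsal side, changed by -3.48 (SE 0.86, adjusted p 0.00201, with -4.11 without mutant shield library 2) from 9.04–15.1 to 0–2.27 CPM. bmp15, an oocyte growth factor, changed by -3.86 (SE 0.62, adjusted p 2.46e-05, with -4.81 without mutant shield library 3) from 13.4–36.1 to 0.752–3.799 CPM. cth1, a zinc-finger RNA-binding protein, and org, the oogenesis-related gene, changed by -2.18 (SE 0.14, adjusted p 3.7e-11) and -2.19 (SE 0.11, adjusted p 5.35e-13). npm2b, a nucleoplasmin that packs the early nucleus, moved least, from 441.2, 426 and 425 CPM to 302, 384, 346 and 387 CPM (log2 change -0.32, SE 0.10, adjusted p 0.0134). Its call was lost without mutant dome library 1 (-0.31, adjusted p 0.0517) or without mutant shield library 3 (-0.29, adjusted p 0.0555). zp2l1, an egg coat gene, was not called, at 20.1–30.8 CPM and 12.7–21.1 CPM (adjusted p 0.188; called lower with library totals, adjusted p 0.0216).

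Of 7 genes described as miR-430 targets, 5 fell and none rose, with a median of -1.12. tdrd7a, a Tudor protein of germ granules, was at 106, 124 and 106 CPM at dome and 19.4, 22.4, 30.1 and 24.4 CPM at shield (log2 change -2.26, SE 0.20, adjusted p 4.96e-09). nanos3, a translational repressor needed by germ cells, was at 65.2, 106 and 71.6 CPM and then 13.98, 18.96, 20.5 and 22.9 CPM (log2 change -2.12, SE 0.25, adjusted p 3.11e-07). Both were lower in every shield library. ndr1, the Nodal ligand squint, changed by -2.08 (SE 0.42, adjusted p 0.000279) from 24.9–41.6 to 3.03–15.5 CPM. lft2, a Nodal antagonist, changed by -0.93 (SE 0.24, adjusted p 0.00278) from 53.3–62.6 to 21.2–38.6 CPM, and was not called in 1 fit of all 12 groups (adjusted p 0.0576). Both are also transcribed by the embryo itself.

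The 13 germ plasm and germ cell genes, 3 of which are also in the miR-430 list, had 9 falls, 2 rises and a median of -1.36. ca15b, an mRNA concentrated in primordial germ cells, was at 163, 185 and 181 CPM at dome and 20.7, 32.8, 21.5 and 18.1 CPM at shield (log2 change -2.97, SE 0.19, adjusted p 4.07e-11), and its drop was larger than the wild-type change of -1.75 (interaction -1.16, SE 0.25, adjusted p 0.00321). tdrd1, another Tudor protein, changed by -3.41 (SE 0.33, adjusted p 2.44e-08), from 56.9–78.7 to 3.03–10.9 CPM. dnd1, which shields germ cell mRNAs from miR-430, changed by -1.36 (SE 0.32, adjusted p 0.00127), from 26.1–44.5 to 11.2–18.03 CPM. ddx4, the vasa helicase, was called higher instead. It was at 174, 178 and 128 CPM at dome and 196, 235, 197 and 205 CPM at shield, a change of 0.34 (SE 0.13, adjusted p 0.0413) that became -0.07 (adjusted p 0.692) with library totals. The ddx4 call was also lost without mutant dome library 3 (0.20, adjusted p 0.264), mutant shield library 2 (0.29, adjusted p 0.102) or mutant shield library 4 (0.36, adjusted p 0.0613).

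**Figure D3:**
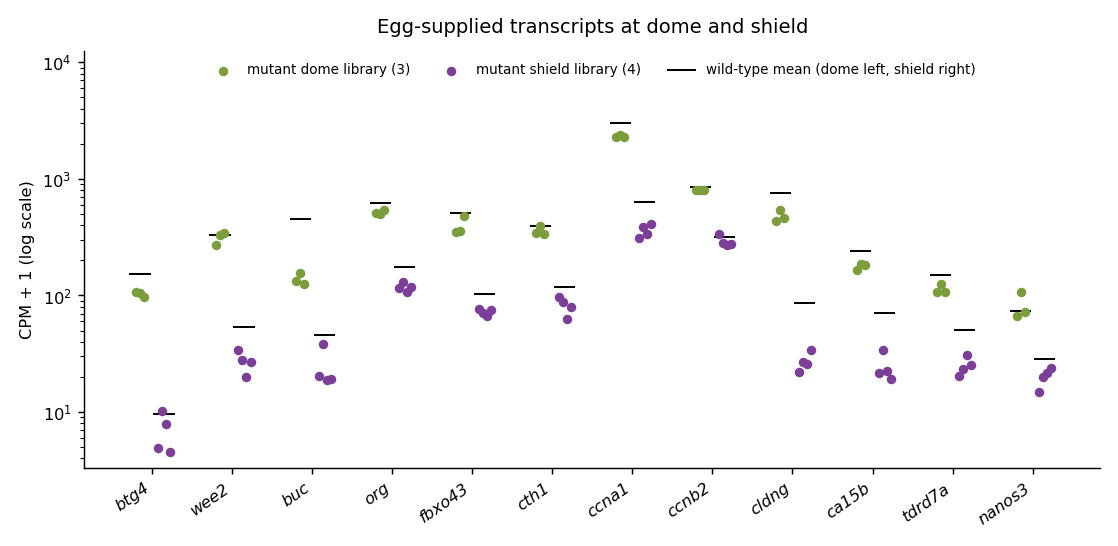
CPM + 1 on a log axis for 12 egg-supplied transcripts; green points are the 3 mutant dome libraries, purple points the 4 mutant shield libraries, and black lines the wild-type means at dome (left) and shield (right). Every shield point lies below every dome point of its gene, as for btg4 with 96.6–105 CPM at dome and 3.57–9.29 CPM at shield. The 12 genes were picked by hand among genes that fell, so their separation follows from the choice. List members left out include ddx4 and celf1, which were called higher, and zp2l1, which was not called. How many of all genes tested had stages that did not overlap was not taken.

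The machinery of mRNA decay and storage moved in both directions. Of 28 tested genes 9 rose, 4 fell and the median was 0.07, so the share called was close to the 47.3% of all genes; with library totals 7 rose and 12 fell. The deadenylase subunit cnot8 was abundant at dome, at 1036, 953 and 1097 CPM, and lower at shield, at 412, 456, 411 and 429 CPM (log2 change -1.31, SE 0.09, adjusted p 6.28e-11). ythdf3, a reader of methylated RNA, and pan2, the catalytic subunit of a deadenylase, changed by -2.42 (SE 0.34, adjusted p 4.4e-06) and -1.64 (SE 0.23, adjusted p 4.75e-06). tnrc6a, the GW182 partner of Argonaute, rose. It was at 197, 170.2 and 156 CPM and then 509, 677, 613 and 587 CPM (log2 change 1.74, SE 0.12, adjusted p 7.55e-11). ybx1, a protein that coats stored mRNA, rose by 1.25 (SE 0.09, adjusted p 2.22e-10). upf1, the helicase of nonsense-mediated decay, the decapping enzyme dcp2 and the AU-rich element binder khsrp rose by 1.52, 1.35 and 0.69 log2 units (adjusted p 5.6e-07, 3.72e-07 and 2.28e-06).

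The interaction of genotype and stage was lower in the mutants for 2 of the 29 decay factors tested and higher for 1, against 4.83% and 2.01% of all genes. The lower ones, xrn1 and cnot1, rose in wild type and were not called in the mutants. xrn1, the exonuclease that degrades decapped mRNA, was at 133, 125 and 119 CPM at dome and 128, 126, 108 and 118 CPM at shield in the mutants (log2 change -0.11, SE 0.14, adjusted p 0.552; -0.52 and called, adjusted p 0.00326, with library totals), while wild type rose by 0.76 (SE 0.14, adjusted p 0.000165). cnot1, the scaffold of CCR4-NOT, was at 362, 348 and 325 CPM and 350.3, 429.9, 381 and 363 CPM in the mutants (log2 change 0.10, SE 0.10, adjusted p 0.447; -0.31 and called, adjusted p 0.0123, with library totals) and rose by 0.82 (SE 0.10, adjusted p 3.55e-06) in wild type. The differences between genotypes were -0.80 (SE 0.19, adjusted p 0.00761) for xrn1 and -0.66 (SE 0.15, adjusted p 0.00385) for cnot1. celf1, an RNA-binding protein of the CELF family, went the other way. It rose by 0.78 (SE 0.13, adjusted p 2.93e-05) in the mutants, from 128–144 to 214–272 CPM, against 0.28 (SE 0.12, adjusted p 0.0505) in wild type (interaction 0.56, SE 0.17, adjusted p 0.0442). That interaction was not called with no filter on low counts (0.54, adjusted p 0.085), nor without any 1 of wild-type dome library 1 (0.53, adjusted p 0.0818), wild-type dome library 2 (0.54, adjusted p 0.0634), wild-type dome library 4 (0.58, adjusted p 0.0501), wild-type shield library 1 (0.54, adjusted p 0.116), wild-type shield library 3 (0.56, adjusted p 0.0909), wild-type shield library 4 (0.52, adjusted p 0.122), mutant dome library 1 (0.52, adjusted p 0.12), mutant dome library 2 (0.59, adjusted p 0.0701), mutant dome library 3 (0.60, adjusted p 0.0604), mutant shield library 1 (0.49, adjusted p 0.086) or mutant shield library 2 (0.48, adjusted p 0.106).

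Cell cycle genes moved in both directions. Of 17 tested cyclins and Cdk regulators 5 rose and 7 fell, with a median of -0.09; with library totals 2 rose and 10 fell. ccna1, the egg and testis form of cyclin A, was at 2301, 2371 and 2308 CPM at dome and 310.2, 385, 333 and 409 CPM at shield (log2 change -2.74, SE 0.09, adjusted p 1.64e-15). ccnb2 went from 804, 804 and 805 CPM to 338, 281, 271 and 276 CPM (log2 change -1.51, SE 0.10, adjusted p 4.07e-11). ccnb1, the other main mitotic cyclin of the egg, went from 2219–2373 CPM to 1367–1605 CPM (log2 change -0.64, SE 0.08, adjusted p 3.29e-07). These mitotic cyclins were lower in every shield library than in any dome library. ccnd1, the cyclin of G1 phase, went from 189.9, 151 and 167 CPM to 349, 367, 333 and 297 CPM (log2 change 0.95, SE 0.12, adjusted p 7.52e-07). cdk1, the kinase that drives mitosis, went from 41.4–55.3 CPM to 111–126 CPM (log2 change 1.19, SE 0.17, adjusted p 5.17e-06).

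The E cyclins, which start S phase, and ccnb3 had lower changes in the mutants than in wild type. ccne1 was at 529, 557 and 619 CPM at dome and 367, 339, 373 and 365 CPM at shield in the mutants (log2 change -0.69, SE 0.09, adjusted p 2.7e-06), where wild type changed by 0.32 (SE 0.10, adjusted p 0.016), and the interaction was -0.95 (SE 0.14, adjusted p 2.57e-05). The wild-type change of ccne1 was not checked with library totals. ccne2 rose in both, by 0.59 (SE 0.11, adjusted p 0.000108) in the mutants and 1.61 (SE 0.15, adjusted p 5.17e-08) in wild type, with an interaction of -0.96 (SE 0.19, adjusted p 0.00156). ccnb3 changed by 0.52 (SE 0.14, adjusted p 0.00454) and by 1.73 (SE 0.17, adjusted p 1.07e-07), with an interaction of -1.15 (SE 0.22, adjusted p 0.000679). For all 3 the mutant dome libraries were above the wild-type dome libraries. They were at 529–619 against 351–456 CPM for ccne1, 321–414 against 124–217 CPM for ccne2 and 122–133 against 36.8–63.1 CPM for ccnb3. With library totals the mutant changes of ccne2 and ccnb3 were 0.18 (adjusted p 0.16) and 0.11 (adjusted p 0.57) and not called.

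Factors known to open the zygotic genome were called in both directions. Of 8 tested genome activators 4 rose and 3 fell. sox19b, the maternal SoxB1 factor, went from 58.01, 73.3 and 79.3 CPM to 9.43, 3.03, 14.4 and 5.64 CPM (log2 change -3.14, SE 0.37, adjusted p 5.47e-07), a deeper fall than the -0.58 of wild type (interaction -2.49, SE 0.44, adjusted p 0.000413). The SoxB1 genes of the neural plate rose. sox3 went from 509, 449.5 and 511 CPM to 1027, 1068, 1087 and 1170.2 CPM (log2 change 1.11, SE 0.09, adjusted p 1.14e-09) and sox19a from 134–169.9 CPM to 328–462 CPM (log2 change 1.38, SE 0.13, adjusted p 1.2e-08). sox2 went from 0, 1.48 and 0 CPM to 139, 53.6, 119 and 73.7 CPM (log2 change 7.66, SE 0.72, adjusted p 1.88e-06, with no count left at dome without mutant dome library 2 and 7.01 without mutant dome library 3). pou5f3, the zebrafish Oct4 relative, rose by 0.99 (SE 0.08, adjusted p 2.78e-09) from 1047–1370.2 to 2454–2523 CPM. The entry listed as nanog was scarce, at 8.37, 6.41 and 1.55 CPM at dome, and near the floor of detection at shield, at 0, 0, 0.165 and 1.32 CPM; its change of -3.86 (SE 1.40, adjusted p 0.0278, with -6.17 without mutant shield library 4) was not called without mutant dome library 1 (adjusted p 0.158), dome library 2 (0.0981), shield library 2 (0.0532) or shield library 3 (0.0597).

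foxh1, the transcription factor that Smad proteins use to answer Nodal, was not called in the mutants. It was at 230.1, 219 and 201 CPM at dome and 253, 263, 222 and 227 CPM at shield (log2 change 0.11, SE 0.11, adjusted p 0.438), and library totals turned the change to -0.30 (adjusted p 0.0335). Wild type rose from 152–181 to 375–412 CPM (log2 change 1.27, SE 0.11, adjusted p 1.99e-08), and the interaction was -1.09 (SE 0.15, adjusted p 1.09e-05).

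Of 19 first-wave zygotic genes, 10 rose and 3 fell, with a median of 0.67; with library totals 9 rose and 5 fell. marcksl1b, a membrane and actin protein, went from 2634, 2492 and 2742 CPM to 6777, 6484, 6806 and 6936 CPM (log2 change 1.32, SE 0.06, adjusted p 5.35e-13). ved, a ventral homeobox repressor, rose by 1.63 (SE 0.11, adjusted p 7.55e-11). klf2b, a zinc-finger factor, rose by 1.08 (SE 0.16, adjusted p 9.56e-06). blf, a zinc-finger gene of the blastula, fell from 436, 381 and 479 CPM to 30.7, 36.2, 33.4 and 34.4 CPM (log2 change -3.72, SE 0.13, adjusted p 1.64e-15; interaction -0.86, SE 0.16, adjusted p 0.000593). dusp6, a feedback inhibitor of Fgf signalling, rose by 1.48 (SE 0.12, adjusted p 2.45e-09) against 2.27 in wild type (interaction -0.72, SE 0.16, adjusted p 0.00317). klf2b had a larger rise in the mutants than the 0.22 of wild type (interaction 0.93, SE 0.21, adjusted p 0.00469).

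In the Nodal and endoderm list the falls included the ligands ndr1 and gdf3, the co-receptor tdgf1, the transducer smad2 and the transcription factor mxtx2. The rises included the receptor gene acvr2aa and the endodermal transcription factors gata5, gata6, foxa2, foxa3 and sox17. acvr2aa went from 17.04–24.2 to 35.1–55.5 CPM (log2 change 1.01, SE 0.28, adjusted p 0.00492). Of 15 tested genes 6 rose and 6 fell, and with library totals 4 rose and 7 fell. Values for ndr1 and lft2 are given above. gdf3, the maternal Vg1 partner of Nodal ligands, went from 561, 516 and 550.5 CPM to 208, 173, 197 and 216 CPM (log2 change -1.49, SE 0.10, adjusted p 1.45e-10). The signal transducer smad2 went from 102–138 to 28.8–49.7 CPM (log2 change -1.81, SE 0.20, adjusted p 1.25e-07). tdgf1, the one-eyed pinhead co-receptor without which Nodal is not received, went from 580.0, 539.6 and 645 CPM to 386, 339, 370.0 and 345 CPM (log2 change -0.75, SE 0.10, adjusted p 1.27e-06). In wild type tdgf1 went the other way, from 363–444 to 542–559.6 CPM (log2 change 0.45, SE 0.10, adjusted p 0.000872), with an interaction of -1.13 (SE 0.14, adjusted p 9.47e-07). The wild-type rise was not checked with library totals, which move the wild-type median by -0.47 log2 units.

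The 5 endodermal transcription factors that rose were higher in every mutant shield library than in any dome library. gata6 was at 119, 94.8 and 92.04 CPM at dome and 659.9, 616, 605 and 563 CPM at shield (log2 change 2.54, SE 0.12, adjusted p 1.83e-13). gata5, its paralogue in the same tissue, was at 58.3–65.4 and 165–245 CPM (log2 change 1.68, SE 0.15, adjusted p 9.01e-09). foxa2, of endoderm and axial mesoderm, was at 7.78, 13.97 and 15.1 CPM and 103, 92.5, 102 and 95.7 CPM (log2 change 2.96, SE 0.24, adjusted p 1.37e-09). foxa3 changed by 1.07 (SE 0.11, adjusted p 3.61e-08). sox17, the marker of committed endoderm, was scarce, at 1.47, 0 and 0 CPM and 4.89, 3.41, 7.27 and 6.21 CPM (log2 change 3.38, SE 1.36, adjusted p 0.0456, with no count left at dome without mutant dome library 1 and 2.79 without mutant dome library 3). The sox17 call was lost when any of mutant dome library 2 (2.83, adjusted p 0.109), mutant dome library 3 (2.79, adjusted p 0.107), mutant shield library 1 (3.44, adjusted p 0.0515), mutant shield library 3 (3.23, adjusted p 0.0933) or mutant shield library 4 (3.33, adjusted p 0.078) was left out. 2 other factors of the list were not tested: sox32, which acts upstream of sox17, had no count in any mutant library of either stage, and foxa1 overlapped between them, at 0–0.329 and 0–1.68 CPM. Whether these 3′ libraries count the sox32 and nanog entries in full was not tested. The cyclin entry ccna2 also had no count at dome or shield, in either genotype.

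Mesoderm and tailbud genes had the highest median of the 17 lists. Of 22 tested genes 14 rose and 2 fell, and the median was 2.48. Like those of the other lists, these counts and the ranking are descriptions. Members scarce at dome, such as mespaa, passed the count filter through shield, and members scarce at both stages, such as meox1 and wnt3a, were not tested. msgn1 (ENSDARG00000070546), the bHLH factor of paraxial mesoderm, was at 10.4, 10.02 and 5.81 CPM at dome and 658, 917, 837 and 883 CPM at shield (log2 change 6.53, SE 0.19, adjusted p 1.64e-15). tbxta, the brachyury gene of the margin and notochord, was at 60.7, 47.8 and 58.6 CPM and 498, 268, 442 and 347 CPM (log2 change 2.76, SE 0.19, adjusted p 7.44e-10). tbx16, which directs mesoderm cells inward, was at 212–261 and then 329.9–529 CPM (log2 change 0.80, SE 0.13, adjusted p 3.68e-05). Its relative tbx16l was at 0.294–3.12 and 91.3–138 CPM (log2 change 5.78, SE 0.39, adjusted p 6.84e-10). In each case the stages were separate.

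cdx4, a caudal factor that patterns the posterior body, was at 4.70, 8.22 and 6.45 CPM at dome and 409, 448, 378 and 365 CPM at shield (log2 change 5.92, SE 0.18, adjusted p 2.8e-16). Its wild-type dome libraries were lower, at 0.530–1.58 CPM, while the shield libraries of wild type reached 318–356 CPM, so the wild-type change of 8.38 was larger (interaction -2.39, SE 0.30, adjusted p 1.8e-06). Those dome values were near the floor of 3 counts (0.359 to 0.398 CPM there), so the sizes of the wild-type change and the interaction are not settled. eve1, a ventral and posterior homeobox gene, changed by 5.30 (SE 0.50, adjusted p 3.92e-06). Some genes of somite formation were higher in every shield library. mespab, a segment boundary factor, was at 0.441, 0 and 1.29 CPM and 84.4, 93.3, 113 and 103 CPM (log2 change 7.22, SE 0.42, adjusted p 1.12e-11, with 8.56 without mutant dome library 3). mespaa had no count in any dome library and 82.9, 39.998, 47.1 and 58.5 CPM at shield, at least 129.7-fold higher than the floor of 3 counts per library. The oscillating gene her1 was at 0, 0 and 2.07 CPM at dome and at 40.3, 6.07, 38.6 and 32.2 CPM at shield (log2 change 5.24, SE 1.02, adjusted p 0.000994, with no count left at dome without mutant dome library 3). Its partner her7 was at 0.587–5.59 and 76.4–105 CPM (log2 change 5.25, SE 0.50, adjusted p 3.95e-07, with 6.71 without mutant dome library 2). Others were not called. mespba, a relative of mespab, was at 0–1.03 and 1.32–4.62 CPM (log2 change 2.94, SE 1.48, adjusted p 0.11; adjusted p 0.0363 by DESeq2). tbx6, a T-box gene of presomitic mesoderm, overlapped between the stages, at 0.294–3.23 and 0.505–4.46 CPM (log2 change 0.54, SE 1.29, adjusted p 0.765).

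There were 2 mesodermal falls. noto, the floating head gene of the notochord, went from 161–213 to 114–138 CPM (log2 change -0.58, SE 0.14, adjusted p 0.00136; adjusted p 0.141 in 1 fit of all 12 groups). fgf17, a ligand at the margin, went from 104–119 to 34.02–58.8 CPM (log2 change -1.22, SE 0.19, adjusted p 1.76e-05). aplnra, a receptor for the Apela peptide that guides mesendoderm cells, moved little, from 226, 216 and 227 CPM to 289, 286, 333 and 269 CPM (log2 change 0.36, SE 0.11, adjusted p 0.0106; -0.05, adjusted p 0.705, with library totals). Its wild-type change was 1.35 (SE 0.14, adjusted p 2.64e-07) (interaction -0.93, SE 0.18, adjusted p 0.000706). Its paralogue aplnrb rose by 1.49 (SE 0.14, adjusted p 3.23e-08).

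Of 14 organizer and dorsal axis genes 9 rose and 2 fell, with a median of 1.41. chrd, the secreted BMP antagonist chordin, went from 183, 161 and 221 CPM to 524, 739, 637 and 700.5 CPM (log2 change 1.75, SE 0.13, adjusted p 2.91e-10). otx2a and otx2b are homeobox genes of the anterior axis and head. otx2a went from 12.3–23.6 CPM to 193–217 CPM (log2 change 3.59, SE 0.20, adjusted p 3.24e-12) and otx2b from 0.294–1.64 to 21.4–27.5 CPM (log2 change 4.85, SE 0.55, adjusted p 2.3e-07, with 5.64 without mutant dome library 2). sp5l, a Wnt-responsive zinc-finger gene, rose by 6.12 (SE 0.21, adjusted p 1.91e-15). lhx1a, a LIM factor of the organizer, rose by 2.43 (SE 0.28, adjusted p 2.49e-07) and frzb, a secreted Wnt antagonist, by 3.61 (SE 0.59, adjusted p 2.92e-05, with 4.61 without mutant dome library 1). Beside noto the second fall was that of gsc, the classical organizer marker goosecoid, which was at 162, 139 and 202 CPM at dome and 126, 160.4, 117 and 113 CPM at shield. Those groups overlapped, and the gsc change of -0.42 (SE 0.15, adjusted p 0.0271) was not called when any of mutant dome library 1 (-0.45, adjusted p 0.0525), mutant dome library 3 (-0.27, adjusted p 0.209), mutant shield library 1 (-0.39, adjusted p 0.0588), mutant shield library 3 (-0.36, adjusted p 0.103) or mutant shield library 4 (-0.35, adjusted p 0.109) was left out.

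Ventral and ectodermal genes were called mostly higher. Of 13 tested BMP pathway and ventral genes 8 rose and 1 fell (7 and 3 with library totals), with a median of 1.63. The ligand bmp4 went from 4.99, 0.822 and 7.36 CPM to 33.2, 32.04, 36.01 and 42.1 CPM (log2 change 2.96, SE 0.47, adjusted p 2.56e-05). id3, a direct target of BMP signalling, went from 114, 106 and 125 CPM to 692, 943, 889 and 832 CPM (log2 change 2.82, SE 0.12, adjusted p 3.47e-14). The ligand bmp7a rose by 0.62 (SE 0.12, adjusted p 0.000189) from 155–172 to 228–284 CPM (0.21, adjusted p 0.153, with library totals). szl, the sizzled inhibitor of chordin proteases, rose by 2.18 (SE 0.55, adjusted p 0.00231). The fall was that of smad5, the mainly maternal BMP transducer, from 339.8–358 to 226–282 CPM (log2 change -0.52, SE 0.11, adjusted p 0.000354).

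Of 9 epidermal genes 6 rose and none fell (6 and 2 with library totals), with a median of 1.37. Among them tfap2a, an AP-2 factor of non-neural ectoderm, changed by 1.019 (SE 0.18, adjusted p 7.94e-05) and gata2a, a GATA factor of ventral ectoderm, by 1.37 (SE 0.26, adjusted p 0.00018). Of 10 neural genes 7 rose and 1 fell, with a median of 1.25. gbx1, of the future hindbrain, went from 11.6–22.3 to 46.4–69.8 CPM (log2 change 1.67, SE 0.29, adjusted p 5.02e-05). her5, the repressor that later marks the midbrain, fell from 79.5, 106 and 134 CPM to 8.26, 12.9, 9.08 and 2.82 CPM (log2 change -3.73, SE 0.33, adjusted p 1.62e-08). otx1 was not called in the mutants (log2 change 0.39, SE 0.21, adjusted p 0.139; -0.02, adjusted p 0.941, with library totals) and fell in wild type (log2 change -0.79), with an interaction of 1.25 (SE 0.28, adjusted p 0.00419).

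**Figure D4:**
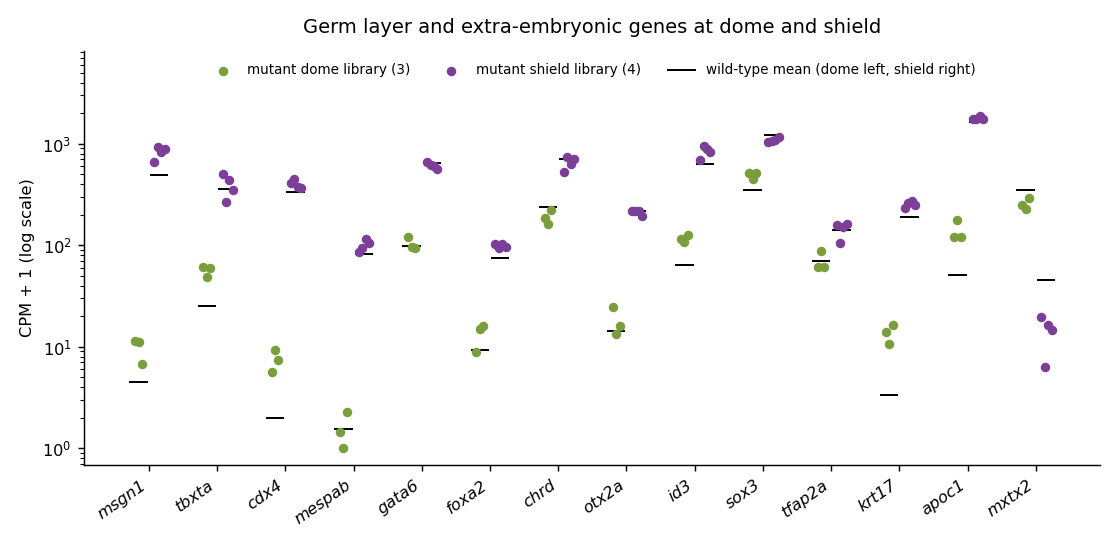
CPM + 1 on a log axis for 14 genes of mesoderm, endoderm, organizer, ectoderm, enveloping layer and yolk syncytial layer; green points are the 3 mutant dome libraries, purple points the 4 mutant shield libraries, and black lines the wild-type means at dome (left) and shield (right). The shield points lie above the dome points for every gene but mxtx2, which fell from 228–294 to 5.31–18.7 CPM, and for krt17, cdx4 and apoc1 the wild-type line lies below the mutant points at dome. The 14 genes were picked by hand for display, so their separation describes the choice. Members left out, such as noto, fgf17, her5, grhl3 and smad5, fell. Of 211 list members tested, 154 had stages that did not overlap, and the share over all genes was not taken.

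The enveloping layer is the flat epithelium that covers the blastoderm and is the first tissue to differentiate. Of its 23 tested genes 15 rose and 3 fell, with a median of 2.21. Most of the genes with large rises encode keratins or annexins. krt8 went from 1011, 860.5 and 965 CPM to 4415, 4684, 4559.5 and 4296 CPM (log2 change 2.21, SE 0.08, adjusted p 1.64e-15). krt4 went from 426–452 to 1959–2149 CPM (log2 change 2.19, SE 0.08, adjusted p 4.01e-15). krt17 went from 13.1, 9.53 and 15.5 CPM to 230.3, 260.3, 271 and 246 CPM (log2 change 4.26, SE 0.18, adjusted p 3.47e-14). cyt1, a type I keratin, changed by 2.92 (SE 0.16, adjusted p 3.85e-11) and ppl, the plakin periplakin, by 2.47 (SE 0.16, adjusted p 3.46e-11). The falls included grhl3, the grainyhead factor of the layer, from 158–169 to 82.3–106 CPM (log2 change -0.81, SE 0.14, adjusted p 4.95e-05).

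Against a background of 4.83% of all genes, the interaction was lower in the mutants for 7 of the 23 enveloping layer genes and higher for none. Of the 17 that rose in wild type it was lower for 6, where the share over all 3000 genes that rose in wild type was 13.2%. The trait was not particular to this layer. Lower interactions were also called for 4 of 8 genome activators, 6 of 19 first-wave genes and 3 of 12 yolk syncytial layer genes. Among these lists 1 first-wave gene had a higher interaction. For krt4, krt5, krt8, krt17, krt92 and anxa1b every mutant dome library was above every wild-type dome library. The share of all genes separated in this way was not taken. Genes outside the list, such as ccne1, ccne2, ccnb3, smc2, stm and tdgf1, were separated too, and others, such as mxtx2 and cldng, were separated the other way. krt92 was at 270.4–308 CPM in the mutant and 74.1–123 CPM in the wild-type dome libraries, and its rises were 2.26 and 3.33 (interaction -1.002, SE 0.17, adjusted p 0.000232). In the same order krt5 was at 70.8–107 and 24.7–47.5 CPM (interaction -1.16, SE 0.22, adjusted p 0.00169) and krt17 at 9.53–15.5 and 0.598–4.33 CPM (interaction -2.01, SE 0.39, adjusted p 0.00221). anxa1b, an annexin, was at 1.03–4.41 and 0–0.654 CPM (interaction -3.15, SE 0.64, adjusted p 0.0014, with -2.46 without mutant dome library 1). Its wild-type dome values were near the floor of 3 counts (0.359 to 0.398 CPM there), so the size of its interaction is not settled. At shield the mutant libraries were at 574–664 and the wild-type libraries at 507–586 CPM for krt5, and at 30.1–59.5 and 58.7–63.7 CPM for anxa1b, and these overlapped. For krt4 and krt92 every mutant shield library was above every wild-type one, at 1959–2149 against 1656–1673 CPM and at 1294–1504 against 865–1005 CPM. The interactions of krt4 and krt8 were -0.75 and -0.65. The seventh was epcam, an epithelial adhesion gene, which was lower in every mutant library than in any wild-type library. It was at 93.1, 167 and 119.9 CPM at dome and 76.99, 45.1, 64.1 and 50.02 CPM at shield against 1994–2268 and 2182–2403 CPM in wild type. It fell in the mutants (log2 change -1.14, SE 0.21, adjusted p 0.000112) and was not called in wild type (log2 change 0.16, SE 0.08, adjusted p 0.116; interaction -1.23, SE 0.25, adjusted p 0.00761).

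The yolk syncytial layer, the shared cytoplasm at the yolk surface that feeds the embryo with lipoproteins, had 9 rises and 1 fall among 11 tested genes, and a median of 2.28. The apolipoprotein gene apoeb was at 1476, 1463 and 1579 CPM and then 7205, 8058, 7539 and 7291 CPM (log2 change 2.28, SE 0.07, adjusted p 2.8e-16). apoc1, another apolipoprotein gene, was at 120.1, 177 and 119 CPM and then 1748, 1762, 1863 and 1736 CPM (log2 change 3.64, SE 0.13, adjusted p 2.66e-14). mttp, which loads lipid onto apolipoproteins, rose by 3.32 (SE 0.17, adjusted p 8.79e-13). hnf4a, a nuclear receptor of lipid-handling tissues, rose by 2.66 (SE 0.24, adjusted p 6.64e-09). apoa1b was uneven at dome, at 4.11, 20.2 and 4.39 CPM, and was at 89.3–145 CPM at shield (log2 change 3.70, SE 0.50, adjusted p 8.28e-05, with 4.83 without mutant dome library 2). The fall was that of mxtx2, the homeobox factor that specifies the layer, at 249, 228 and 294 CPM and then 18.7, 5.31, 15.5 and 13.7 CPM (log2 change -4.30, SE 0.26, adjusted p 8.79e-10). The rise of apoc1 was 5.07 in wild type, where dome libraries were at 33.9–69.6 CPM (interaction -1.36, SE 0.29, adjusted p 0.013).

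Of 13 tested genes of cell movement in gastrulation 8 rose and none fell (7 and 2 with library totals), with a median of 0.97. The shares over all genes tested were 23.6% and 23.7%. cdh2, the N-cadherin of mesoderm and neural tissue, went from 28.1, 32.5 and 24.7 CPM to 223, 268, 241 and 232 CPM (log2 change 3.04, SE 0.15, adjusted p 8.72e-13). vangl2, a planar polarity protein for convergence and extension, went from 205–233 to 375–485 CPM (log2 change 0.97, SE 0.11, adjusted p 2.5e-07).

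The 10 largest rises and 10 largest falls among genes of at least 20 CPM in the higher stage were taken by rule. The rises included mespaa, mespab, msgn1 and sox2, described above. ripply1, a repressor that ends the somite programme, had 3 counts in all dome libraries together and 23.8, 19.3, 26.8 and 39.3 CPM at shield, a ratio of 187 (95% counting interval 63.7 to 910). cyba, a subunit of the NADPH oxidase, had 2 counts at dome and 29.5, 45.7, 26.3 and 26.1 CPM at shield, a ratio of 326 (90.0 to 2700). These intervals cover counting error only. lhx5, a LIM factor of the forebrain, changed by 7.48 (SE 0.31, adjusted p 1.63e-13, with 8.17 without mutant dome library 1). The entry listed as foxc1, a forkhead factor of paraxial mesoderm, changed by 6.75 (SE 0.46, adjusted p 1.01e-10). ednra, an endothelin receptor, changed by 6.43 (SE 0.43, adjusted p 7.06e-11, with 7.65 without mutant dome library 1) and mpp1, a membrane scaffold protein, by 6.66 (SE 0.59, adjusted p 9.58e-09, with 9.05 without mutant dome library 2 and 6.01 without mutant dome library 3). At dome lhx5, foxc1, ednra and mpp1 were at 0 to 2.18 CPM of the library total in the mutants. The sizes of these rises are not settled.

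Among the falls, the entry listed as ctsb, a lysosomal cathepsin, was the largest. It was at 389, 417 and 339.5 CPM in the mutant dome libraries and at 0.505, 0.379, 0.165 and 0 CPM in the mutant shield libraries (log2 change -10.42, SE 0.26, adjusted p 2.79e-17). In wild type it rose from 123–208 to 481–586 CPM (log2 change 1.84, SE 0.16, adjusted p 3.58e-08; interaction -12.21, SE 0.34, adjusted p 1.83e-19). Its mutant shield values were at or under the floor of 3 counts (0.496 to 0.569 CPM there). The sizes of the mutant fall and of the interaction are therefore not settled. The other falls were mxtx2, described above, and 8 more genes. cldng, a claudin of tight junctions, went from 435, 536 and 459.6 CPM to 21.2, 25.8, 24.6 and 32.7 CPM (log2 change -4.24, SE 0.15, adjusted p 1.64e-15). fyn, a Src family kinase, changed by -4.60 (SE 0.27, adjusted p 1.22e-11). lhx8, a LIM factor known from mouse oocytes, was at 14.7–27.9 CPM at dome and had counts in 1 shield library, at 1.13 CPM (log2 change -6.26, SE 0.86, adjusted p 3.66e-06, with no count left at shield without mutant shield library 4). hid1b, znf1125, gkup and uckl1b were at 27.9–44.8, 55.9–77.4, 28.01–32.5 and 17.4–40.2 CPM at dome and at 0–4.04, 0–6.91, 0.376–3.96 and 0.337–2.63 CPM at shield. tpm4, a tropomyosin, changed by -4.74 (SE 0.58, adjusted p 1.11e-06, with -5.98 without mutant shield library 2) and went the other way in wild type, from 9.55–14.7 to 15.9–24.2 CPM (log2 change 0.77, SE 0.31, adjusted p 0.0477). As CPM of the library total, its wild-type means were 14.1 at dome and 17.3 at shield.

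Most genes called in the mutants were also called in wild type. There 6192 of 11708 genes (52.9%) were called, 3051 higher (26.1%) and 3141 lower (26.8%), and 4500 (38.4%) changed by at least 1 log2 unit; with library totals 2019 were higher and 4675 lower. Of 10593 genes tested in both genotypes, 2149 rose in both, which is 84.1% of the mutant and 71.6% of the wild-type rises, and 1945 fell in both, which is 74.4% and 66.8%. The 2 fits share no library. The log2 changes had a Pearson r of 0.754 across these genes, which share annotation and counting and are not independent. There were 63 genes called in opposite directions, 46 of which rose in wild type and fell in the mutants. These opposite calls are on the scaled values and were not counted with library totals.

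The change itself differed between genotypes for 892 of 13053 genes (6.83%), higher in the mutants for 262 (2.01%) and lower for 630 (4.83%), and 581 (4.45%) differed by at least 1 log2 unit as well. A set of genes fixed by other stages, those that rise by at least 2 log2 units from 256-cell to bud in wild type, had a median change of 1.27 in the mutants and 1.66 in wild type over 2208 genes, with 249 interactions lower and 27 higher. At dome 76.7% of these genes had a higher mean in the mutants than in wild type, and at shield 65.0%. The 2126 genes that fall over the same course had medians of -1.63 and -1.54, with 95 interactions lower and 45 higher. Of those falling genes, 30.1% at dome and 32.3% at shield had a higher mean in the mutants than in wild type. The shares over all genes tested were not taken. Both sets were fixed in wild-type libraries alone, so the choice may favour larger changes in wild type. The lower interactions with the smallest p-values beside ctsb were stm, smc2 and spcs2. stm, the starmaker gene of ear stones, rose by 0.58 (SE 0.10, adjusted p 3.63e-05) in the mutants (0.17, adjusted p 0.147, with library totals) and 2.43 (SE 0.11, adjusted p 7.21e-12) in wild type. smc2, a condensin subunit, went from 475, 418 and 446 CPM to 206, 184, 215 and 207 CPM in the mutants and from 199.8–208 to 267–311 CPM in wild type (interaction -1.61, SE 0.15, adjusted p 3.31e-09). As CPM of the library total, the wild-type means of smc2 were 242 at dome and 246 at shield. spcs2, of the signal peptidase, went from 395–458 to 91.7–147 CPM in the mutants and was at 108–156 and 129–132 CPM in wild type (interaction -1.77, SE 0.20, adjusted p 2.08e-07).

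Among the higher interactions with the smallest p-values were those of spns1, rnf121 and tmem101. tmem101, a membrane protein, was at 0.147, 0.657 and 3.36 CPM at dome and 88.6, 83.03, 104 and 118 CPM at shield in the mutants (log2 change 6.01, SE 0.49, adjusted p 4.5e-08, with 7.86 without mutant dome library 3), against 60.6–73.5 and 89.7–94.8 CPM in wild type. spns1, a lysosomal transporter, and rnf121, a ubiquitin ligase, fell in wild type (log2 changes -2.37 and -3.05) and were not called in the mutants (log2 change -0.23, SE 0.12, adjusted p 0.137 and log2 change 0.56, SE 0.28, adjusted p 0.109). With library totals the spns1 change was -0.64 (adjusted p 0.000154) and called.

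**Figure D5:**
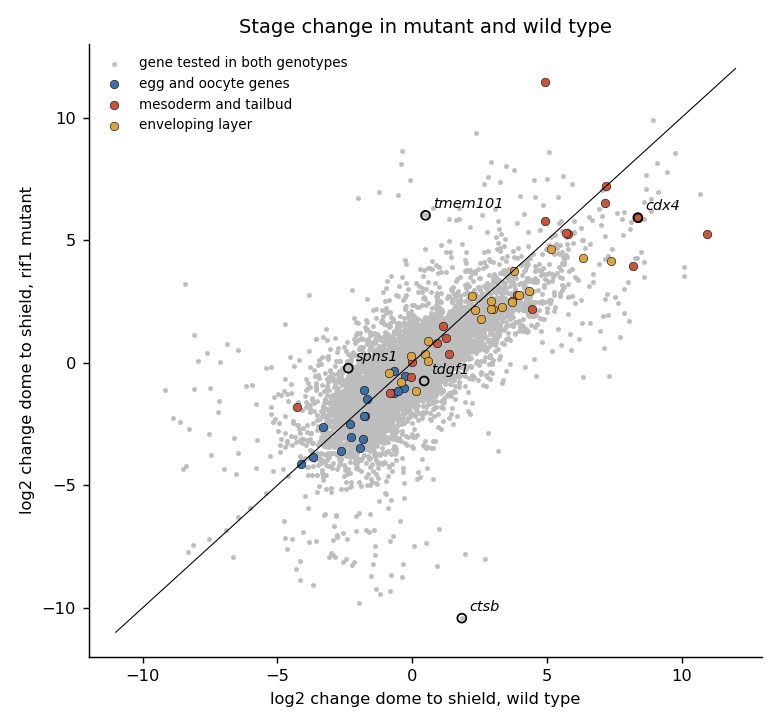
Each point is a gene tested in both genotypes, with the log2 change from dome to shield in wild type on the horizontal axis and in rif1 mutants on the vertical axis; the line marks equal change, blue points are egg and oocyte genes, red points mesoderm and tailbud genes, and yellow points enveloping layer genes. Most yellow points lie below the line on the side of rises, and ctsb, at 1.84 and -10.42, lies farthest below it. The size of the ctsb fall is not settled, since its mutant shield levels were at or under the floor. That side of the line is not particular to the yellow points. The interaction was below 0 for 19 of 23 enveloping layer, 13 of 14 organizer, 8 of 8 genome activator and 7 of 13 germ plasm genes. It was below 0 for 70.2% of the rising and 53.9% of the falling set fixed by other stages of wild type. Its median over all genes tested was -0.11.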

How the data were processed

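Counts per gene are as deposited by the authors, in whole numbers without normalization, for 43 libraries and 31877 entries. Per the submitters' processing notes they were made with STAR and HTSeq on build GRCz11; versions, the annotation and the use of strand and of molecular identifiers are not given in the sources used here, so reads may not be independent molecules, and overlapping genes or near-identical copies may share reads. Per the labels' protocols, QuantSeq 3′ libraries of poly(A) RNA were read from 1 end. Symbols came from a gene name table, matched without regard to case: of 304 list symbols 232 matched, 9 more matched by an older symbol, and 63 did not match. Some entries carry the human orthologue's symbol. No coordinates or sequences are given, since no reference of the same build was used here. The 30 matched members not tested were at most at 12.7 CPM.

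Fits used edgeR 4.0.16 in R 4.3.3 (TMM, filterByExpr, robust quasi-likelihood, Benjamini-Hochberg, threshold 0.05), with DESeq2 1.42.0 as an alternative. The mutant fit held the 7 mutant dome and shield libraries, the wild-type fit 7 others, and the interaction of genotype and stage all 14. Standard errors were taken from the log2 change and its F statistic. The fits were tested on simulated data. Genes named are rif1, list members and, by rule, the 10 largest rises and 10 largest falls (at least 1 log2 unit, at least 20 CPM in the higher stage, stages not overlapping) and the 4 smallest interaction p-values in each direction; 1 of these is not reported here. The members and lists were chosen with earlier results of these data known.

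All 9 mutant replicate pairs differed by more than sampling noise (chi-square per gene at least 9.74), so none was a repeat. Each of the 43 per-sample columns was mapped to a library. The alternatives were RLE size factors, library totals, no filter, at least 10 counts in every library, a replicate block, fits of 4 and 12 groups, DESeq2, each library left out, and other cut-offs for the gene classes and for the 256-cell to bud set.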

Additional observations from a re-analysis of the deposited data

Results flagged for a closer look

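Dixon's 95% limit was applied to the genes named other than acvr2aa, 131 of which were tested in the mutants. By it, 1 of the 4 mutant shield libraries lay far from the other 3 for 13 genes. Chance flags about 1 group in 20. That share does not hold for lhx8 and nanog, whose other shield libraries were at 0 to 0.165 CPM. The high values were those of buc (36.97 CPM), ccnb2 (338 CPM), nanog (1.32 CPM), sp5l (252 CPM), frzb (30.3 CPM), gbx1 (69.8 CPM), lhx8 (1.13 CPM), tpm4 (3.98 CPM), gkup (3.96 CPM) and bmp15 (3.799 CPM). The low values were those of ccnb3 (142 CPM), otx2a (193 CPM) and foxc1 (52.7 CPM). The cause was not tested.

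The change from dome to shield differed between mutant and wild type, by edgeR's test of the interaction, for 43 of the genes named, and these interactions are log2 differences, mutant minus wild type. Among maternal, decay and cell cycle genes they were -0.93 for wee2, -1.16 for ca15b, -0.66 for cnot1, -0.80 for xrn1, 0.56 for celf1, -1.15 for ccnb3, -0.95 for ccne1 and -0.96 for ccne2. Among genome activators and first-wave genes they were -0.50 for pou5f3, -0.66 for sox3, -2.49 for sox19b, -1.09 for foxh1, -0.86 for blf, -0.72 for dusp6 and 0.93 for klf2b. Among germ layer genes they were -1.28 for mxtx2, -1.13 for tdgf1, -1.08 for tbxta, -2.39 for cdx4, -0.93 for aplnra and 1.25 for otx1. In the enveloping and yolk syncytial layers they were -0.75 for krt4, -1.16 for krt5, -0.65 for krt8, -2.01 for krt17, -1.002 for krt92, -3.15 for anxa1b (-2.46 without mutant dome library 1), -1.23 for epcam and -1.36 for apoc1. The anxa1b and cdx4 values rest on wild-type dome levels near the floor, and their sizes are not settled.

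Among the genes taken by rule, and rif1, the interactions were -12.21 for ctsb, -3.37 for lhx8 (with no count left at shield in the mutants without mutant shield library 4), -5.45 for tpm4 (-6.72 without mutant shield library 2), -3.38 for hid1b (-4.89 without mutant shield library 1), -1.33 for fyn, -1.06 for cldng, -1.79 for stm, -1.61 for smc2, -1.77 for spcs2, 4.63 for cyba, 2.21 for spns1, 3.68 for rnf121, 5.57 for tmem101 (7.44 without mutant dome library 3) and 1.69 for rif1. The cyba value rests on 2 dome counts in the mutants and is no fold. That of ctsb rests on mutant shield levels at or under the floor, and its size is not settled.

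Some of these interactions were lost when 1 library was left out. That of pou5f3 was lost without mutant dome library 3 (-0.41, adjusted p 0.0516), and that of mxtx2 without wild-type shield library 4 (-1.13, adjusted p 0.0583), mutant dome library 1 (-1.30, adjusted p 0.0515) or mutant dome library 3 (-1.17, adjusted p 0.0593). That of tbxta was lost without wild-type dome library 1 (-0.94, adjusted p 0.0536), wild-type dome library 3 (-1.10, adjusted p 0.0648), wild-type dome library 4 (-1.004, adjusted p 0.0887), wild-type shield library 1 (-1.08, adjusted p 0.0705), wild-type shield library 3 (-0.99, adjusted p 0.0845), mutant dome library 1 (-1.01, adjusted p 0.119), mutant dome library 2 (-1.17, adjusted p 0.0561), mutant dome library 3 (-1.04, adjusted p 0.111) or mutant shield library 4 (-1.05, adjusted p 0.0507). That of cyba was lost without wild-type dome library 2 (3.81, adjusted p 0.0657), mutant dome library 1 (4.13, adjusted p 0.0591) or mutant dome library 3 (4.05, adjusted p 0.0616), that of hid1b without wild-type shield library 4 (-3.14, adjusted p 0.0657) or mutant dome library 1 (-3.19, adjusted p 0.0648), and that of fyn without wild-type shield library 4 (-0.92, adjusted p 0.139) or mutant dome library 1 (-1.27, adjusted p 0.0634). The libraries for celf1 are given above.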

How the results depend on the processing

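The count of mutant calls was 4490 to 6807 over the alternatives, against 5280. With library totals 1730 were higher in the mutants and 2019 in wild type. That scaling turned the direction of cnot1 (-0.31), foxh1 (-0.30), otx1 (-0.022), ddx4 (-0.070) and aplnra (-0.055). Leaving out each library in turn gave 4676 to 5194 mutant calls and 154 to 295 interactions higher in the mutants, the lowest without wild-type shield library 3. A minimum of 1 log2 unit for the 256-cell to bud sets gave mutant medians of 1.02 (rising) and -1.31 (falling). Deviations of same-numbered libraries of the 2 stages had correlations of -0.0179 to 0.00679 in the mutants and 0.00686 to 0.0485 in wild type. These values show no clear pairing by number. They cannot exclude a shared clutch or batch of small effect, which the labels do not settle. With a replicate block 4713 genes were called in the mutants, and the mutant calls of gsc and ddx4 were not made. The interactions of krt17 (adjusted p 0.0696), epcam (0.264), cyba (0.0574) and celf1 (0.0687) were not called with that block either. In 1 fit of all 12 groups 7 mutant calls were not made: npm2b (adjusted p 0.126), lft2 (0.0576), noto (0.141), gsc (0.188), ddx4 (0.121), aplnra (0.182) and sox17 (0.0727). Of 121 genes named and called, acvr2aa not included, 109 were called in the same direction under every alternative that tested them. The other 12 were npm2b, lft2, ccnb3, ccne2, nanog, sox17, noto, gsc, bmp7a, ddx4, aplnra and stm. Genes scarce at 1 stage were not tested where at least 10 counts in every library were asked for. Of 43 interactions called, 34 were called under every alternative run, and the other 9 were those of celf1, pou5f3, mxtx2, tbxta, krt17, epcam, cyba, hid1b and fyn. Genes at a few counts at dome or shield, such as sox17 and nanog, are limited by depth: 3 counts correspond to 0.387 to 0.569 CPM in the mutant libraries.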

Other observations

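The levels of 2 genes taken by rule went up and down over the mutant stages; these 2 were singled out after their values were seen. The entry listed as ctsb was at 99.8 CPM (of the library total; range 2.39 to 289 over 3 libraries) at the 1-cell stage, 0.652 CPM (0.122 to 1.49) at 256-cell, 439 CPM (385 to 487) at dome, 0.221 CPM (0 to 0.432) at shield, 0.945 CPM (0.369 to 2.42) at bud and 0.305 CPM (0 to 0.54) at 24 hours in the mutants. In wild type its means ran from 72.02 CPM at 24 hours to 455 CPM at shield. tmem101 was at 7.2 CPM (0 to 21.5) at the 1-cell stage, 92.95 CPM (71.1 to 108) at 256-cell, 1.58 CPM (0.168 to 3.81) at dome and 82.6 CPM (68.6 to 99.3) at shield in the mutants, and its wild-type means at these stages were 104, 57.3, 78.7 and 80.04 CPM.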
